A study of Homo sapiens with 12 samples.

Results

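The genes described here are 9 members of the NOTCH pathway, taken by symbol from the 58051 Ensembl genes that were counted. They are the receptors NOTCH1, NOTCH3 and NOTCH4, the ligands JAG1, JAG2 and DLL1, and the targets HES1, HEY1 and NRARP. Each symbol matched 1 identifier, and all 9 genes passed the filter on low counts in both cell lines. They were followed in FaDu cells, a line from a hypopharyngeal squamous cell carcinoma, and in Cal27 cells, a line from a squamous cell carcinoma of the tongue. Each line was studied as parental cells, as cells made resistant to afatinib, an inhibitor of the ERBB receptor family (AfaR), and as cells made resistant to erlotinib, an inhibitor of EGFR (ErlR). All 6 groups are labelled wild type, and resistance was raised by stepwise exposure of each parental line to rising drug concentrations, with no added allele. Every resistant group is 1 drug-selected population, and by the study's methods its cells spent a short time without drug before they were used. Each group had 2 libraries, named replicates 1 and 2 by the labels, so a p-value measures the spread between cultures of 1 model and not between separately selected models. The lines were kept in different media (EMEM for FaDu, DMEM for Cal27), which cannot be told apart from the difference between the lines.

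NOTCH receptors are single-pass membrane proteins that are activated by JAG and DLL ligands on a neighbouring cell. Ligand binding exposes the receptor to ADAM proteases and then to gamma-secretase, which frees the intracellular domain to enter the nucleus and to switch on genes with the DNA-binding protein RBPJ and a MAML coactivator. HES1, HEY1 and NRARP are widely used readouts of this step. In stratified squamous epithelium NOTCH signalling is known to promote the exit of basal cells into differentiation, and NOTCH1 is recurrently inactivated in head and neck squamous cell carcinoma.

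The number of reads counted on genes ranged from 16334937 to 23399259 per library, and 3.86% to 5.82% of the counted reads fell on the ERCC spike-in RNA. Levels are given in CPM, counts scaled to the library's counts on genes (per 1e+06) with TMM factors over all 12 libraries. A gene was said to rise, fall or pass when edgeR's quasi-likelihood test gave a Benjamini-Hochberg adjusted p under 0.05, with the adjustment over all tested genes, and every adjusted p below is of this kind. As a check of the labelled squamous origin, 9 squamous epithelial markers each reached 1 CPM in at least 1 library of every group, the lowest being PKP1 at 1.13 and 0.755 CPM in Cal27 AfaR. They summed to 6802 to 13777 CPM in FaDu libraries and 4125 to 5266 CPM in Cal27 parental and ErlR libraries, but to 1003 to 1108 CPM in Cal27 AfaR. In bulk RNA a smaller share of cells with a transcript and less of that transcript per cell cannot be told apart.

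In Cal27 AfaR cells 6 of the 9 genes were lower than in parental cells and 0 were higher, where 18.2% of all 15269 tested genes were lower and 19.5% higher. The 6 were both abundant receptors among the members (NOTCH1, NOTCH3), all 3 member ligands and NRARP, and each fell by more than 1 on the log2 scale. The members, and the lists named below, were chosen with earlier results of these data known. The shares of all genes set beside them are thus a description and no test. NOTCH2, a receptor outside the 9, rose in Cal27 AfaR (1.38) and in Cal27 ErlR (0.77). In Cal27 ErlR cells NOTCH1, NOTCH3 and JAG1 were lower and 0 members were higher, against a background of 15.3% lower and 12.3% higher. In FaDu AfaR cells 1 member rose (DLL1) and 1 fell (JAG2), against 10.4% and 7.49% of 15092 genes, and in FaDu ErlR cells JAG1 rose, against 2.58%, and 0 members fell, against 1.60%. The median log2 fold change of the 9 was -1.95 in Cal27 AfaR and -0.48 in Cal27 ErlR, beside -0.00 and -0.03 for all tested genes, and it was -0.04 in FaDu AfaR and -0.37 in FaDu ErlR, beside -0.00 in both. HES1 and HEY1, targets of the HES and HEY family, passed in none of the 4 comparisons. The AfaR and ErlR comparisons of a line share their parental libraries. With a log2 fold change over 1 in size required as well, 6 members passed in Cal27 AfaR, 3 in Cal27 ErlR and 0 in both FaDu models, against 19.6%, 13.5%, 7.43% and 2.05% of all genes.

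**Figure D1:**
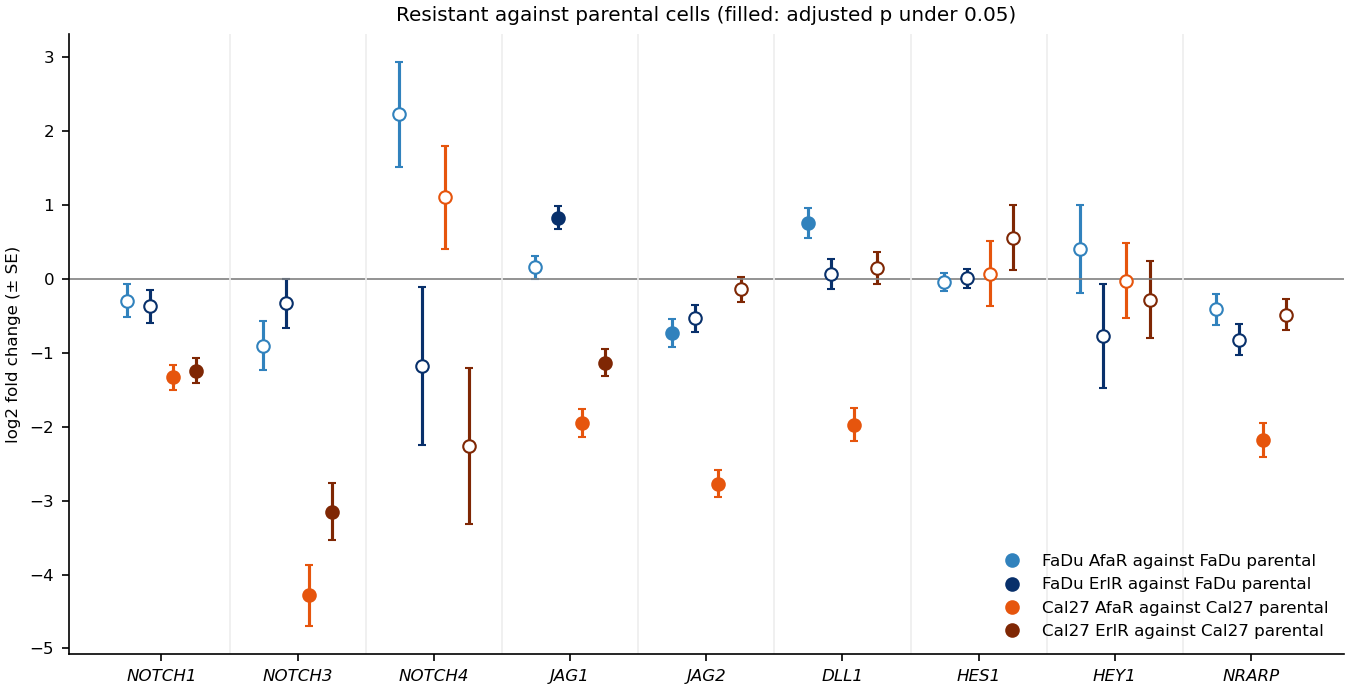
Log2 fold change (± SE) of each of the 9 genes on the vertical axis in the 4 comparisons of resistant with parental cells, n = 2 libraries a group, with filled circles for an adjusted p under 0.05. The lowest points are NOTCH3 in Cal27 AfaR at -4.28 and in Cal27 ErlR at -3.15, and the FaDu points of JAG1, JAG2 and DLL1 that are filled lie between -0.73 and 0.83.

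NOTCH3 (ENSG00000074181, chromosome 19, 15159038 to 15200981, GRCh38, minus strand), a receptor of the NOTCH family, had the widest range of group means among the members. In FaDu its libraries had 64.9 and 69.8 CPM in parental, 20.3 and 52.7 CPM in AfaR, and 48.0 and 60.0 CPM in ErlR cells. In Cal27 they had 96.1 and 159 CPM in parental, 9.61 and 3.37 CPM in AfaR, and 13.5 and 15.6 CPM in ErlR cells. Both resistant Cal27 groups thus lay below every other library, and the Cal27 AfaR libraries below those of Cal27 ErlR. Its log2 fold change was -4.28 in Cal27 AfaR (SE 0.415, adjusted p = 7.61e-05 from edgeR), which is 19.5-fold lower, and -3.15 in Cal27 ErlR (SE 0.388, adjusted p = 0.000725). Without Cal27 AfaR replicate 1 the first value was -5.24, and both calls were kept in each of the 4 fits that left out a library. In FaDu AfaR the log2 fold change was -0.90 (SE 0.337, adjusted p = 0.0921 from edgeR). There the libraries did not overlap those of parental cells but lay far apart from each other, and without FaDu AfaR replicate 2 the value was -1.75 and passed.

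NOTCH1 (ENSG00000148400, chromosome 9, 136494444 to 136545862, minus strand), the receptor of these 3 with the highest RPKM (CPM per kilobase of exons) in FaDu, had in FaDu 146 and 161 CPM in parental, 100 and 153 CPM in AfaR, and 146 and 93.4 CPM in ErlR cells. Cal27 parental cells had 76.5 and 105 CPM, Cal27 AfaR cells 35.8 and 36.5 CPM, and Cal27 ErlR cells 37.5 and 40.8 CPM. In FaDu 1 library of each resistant group lay close to the parental ones, and in Cal27 all 4 resistant libraries were below both parental ones. NOTCH1 fell by 1.33 on the log2 scale in Cal27 AfaR (SE 0.167, adjusted p = 0.000341 from edgeR) and by 1.24 in Cal27 ErlR (SE 0.167, adjusted p = 0.00106). The resistant Cal27 groups differed from each other by -0.09 (SE 0.167, adjusted p = 0.688 from edgeR). Of 31 other tested genes within 500000 bases of NOTCH1, 12 were also lower and 0 higher in Cal27 ErlR, with a median of -0.45, while in Cal27 AfaR 6 were lower and 4 higher with a median of -0.02. Among all tested genes 15.3% were lower and 12.3% higher in Cal27 ErlR, and 18.2% and 19.5% in Cal27 AfaR. In FaDu AfaR, where NOTCH1 did not pass, 7 of 34 genes in this window were lower and 0 higher, against 7.49% and 10.4%. In FaDu ErlR 1 was lower and 0 higher, against 1.60% and 2.58%. The part of the NOTCH1 neighbourhood in the NOTCH1 values was not tested.

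NOTCH4 (ENSG00000204301, chromosome 6, 32194843 to 32224067, minus strand), a receptor best known from endothelium, was near the floor of the measurement, with 100 counts over the 12 libraries. The counts were 5 and 4 in FaDu parental, 16 and 34 in FaDu AfaR, 3 and 0 in FaDu ErlR, 4 and 7 in Cal27 parental, 13 and 12 in Cal27 AfaR, and 0 and 2 in Cal27 ErlR. Both AfaR groups were above the other 4 groups, and their libraries did not overlap them. Summed over replicates and scaled by depth, the ratio of FaDu AfaR to parental counts was 4.92 (exact 95% interval 2.40 to 11.4, for counting error alone), yet the test over replicates gave an adjusted p of 0.0581 from edgeR, at a log2 fold change of 2.23. The gene passed with ERCC scaling (2.41), without a filter (2.23) and with only the 4 libraries compared (2.24). It did not pass when any library was left out, with values from 1.74 to 2.57. With ERCC scaling 2093 of 2313 passing genes were higher in FaDu AfaR, against 1563 of 2694 with TMM. In Cal27 AfaR the ratio was 2.18 (1.04 to 4.91, adjusted p = 0.239 from edgeR). The gene model of NOTCH4 shares 294 exonic bases with GPSM3 on the same strand, so that reads cannot be assigned with certainty to NOTCH4. GPSM3 also had more CPM in FaDu AfaR (7.42 and 12.9) than in FaDu parental cells (3.59 and 3.33). In Cal27 GPSM3 had 3.73 and 3.08 CPM in AfaR, 1.86 and 2.16 CPM in parental and 1.92 and 1.47 CPM in ErlR cells. A list of 8 endothelial markers summed to 3.45 to 6.08 CPM in FaDu parental, 7.18 to 21.2 CPM in FaDu AfaR and 3.64 to 3.86 CPM in FaDu ErlR, and to 32.2 to 33.5, 30.6 to 38.1 and 2.87 to 6.54 CPM in the same groups of Cal27. Of the list, CDH5 went from 1.36 and 3.59 CPM in parental to 3.25 and 15.8 CPM in AfaR cells of FaDu, and in Cal27 it was at 30.3 and 30.7 CPM in parental, 35.8 and 28.5 CPM in AfaR, and 1.09 and 4.16 CPM in ErlR cells. In FaDu VWF went from 0.340 and 0.780 CPM in parental to 1.12 and 3.33 CPM in AfaR cells, while EMCN was at 0 counts in 4 groups and PECAM1 at no more than 2.09 CPM in any library. Of 39 other tested genes within 500000 bases of NOTCH4, 14 were higher and 3 lower in Cal27 AfaR, against 19.5% and 18.2% of all tested genes. In Cal27 ErlR 3 were higher and 10 lower, against 12.3% and 15.3%. In FaDu AfaR 1 of 34 such genes was higher and 1 lower, against 10.4% and 7.49%. The part of these markers and of the NOTCH4 neighbourhood in the NOTCH4 values was not tested.

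**Figure D2:**
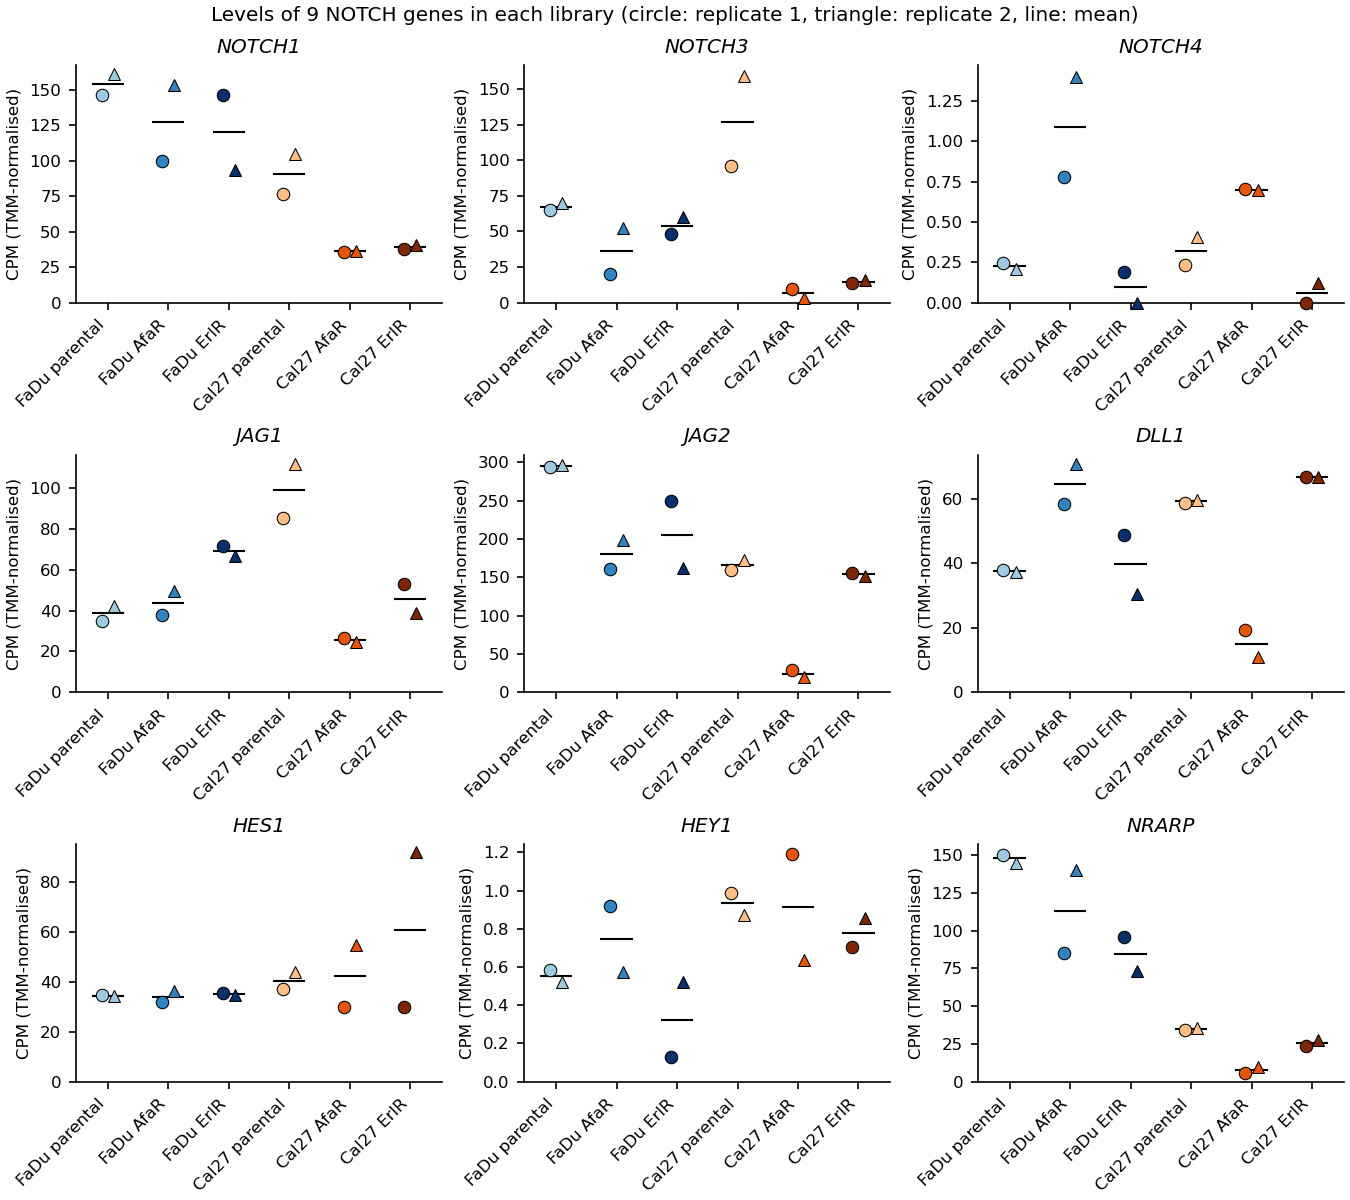
CPM of each of the 9 genes (vertical axes, each from 0) in the 12 libraries, with a circle for replicate 1, a triangle for replicate 2 and a line at the group mean. NOTCH3 and JAG2 drop in Cal27 AfaR to means of 6.49 and 24.3 CPM, NOTCH4 and HEY1 stay below 1.5 CPM in every library, and the HES1 replicates of Cal27 ErlR lie at 29.8 and 92.2 CPM.

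To compare levels between genes, RPKM was used, with the exon length of each gene model. In Cal27 parental cells the 3 member receptors summed to 18.0 and 27.5 RPKM, of which NOTCH3 was the larger part. The sum was 4.72 and 4.12 RPKM in Cal27 AfaR and 5.24 and 5.81 RPKM in Cal27 ErlR, all below the parental libraries. In FaDu it was 21.7 and 23.7 RPKM in parental, 12.4 and 21.3 RPKM in AfaR and 19.9 and 15.8 RPKM in ErlR cells. NOTCH2, a receptor outside the 9 genes that is named because the makeup of the receptors turns on it, moved the other way in Cal27. It had 107 and 102 CPM in Cal27 parental, 284 and 260 CPM in AfaR and 191 and 173 CPM in ErlR cells, with log2 fold changes of 1.38 (SE 0.128, adjusted p = 5.63e-05 from edgeR) and 0.77 (SE 0.126, adjusted p = 0.00248). With NOTCH2 counted, NOTCH3 made up 42.0% and 50.2% of receptor RPKM in the Cal27 parental libraries, 4.73% and 1.83% in AfaR and 8.68% and 10.3% in ErlR. NOTCH2 itself went from 26.1% and 18.1% to 78.2% and 79.0% in AfaR and to 68.5% and 63.9% in ErlR. The summed RPKM of NOTCH1 to NOTCH4 in Cal27 was 24.4 and 33.6 in parental, 21.6 and 19.6 in AfaR and 16.6 and 16.1 in ErlR libraries. Every resistant library was below the parental ones in this sum too, but by less than in the sum of the member receptors. NOTCH2 shares sequence with the NOTCH2NL copies, among them NOTCH2NLA at 1.31 to 3.38 CPM, and how such reads were split is not given in the sources used here.

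**Figure D3:**
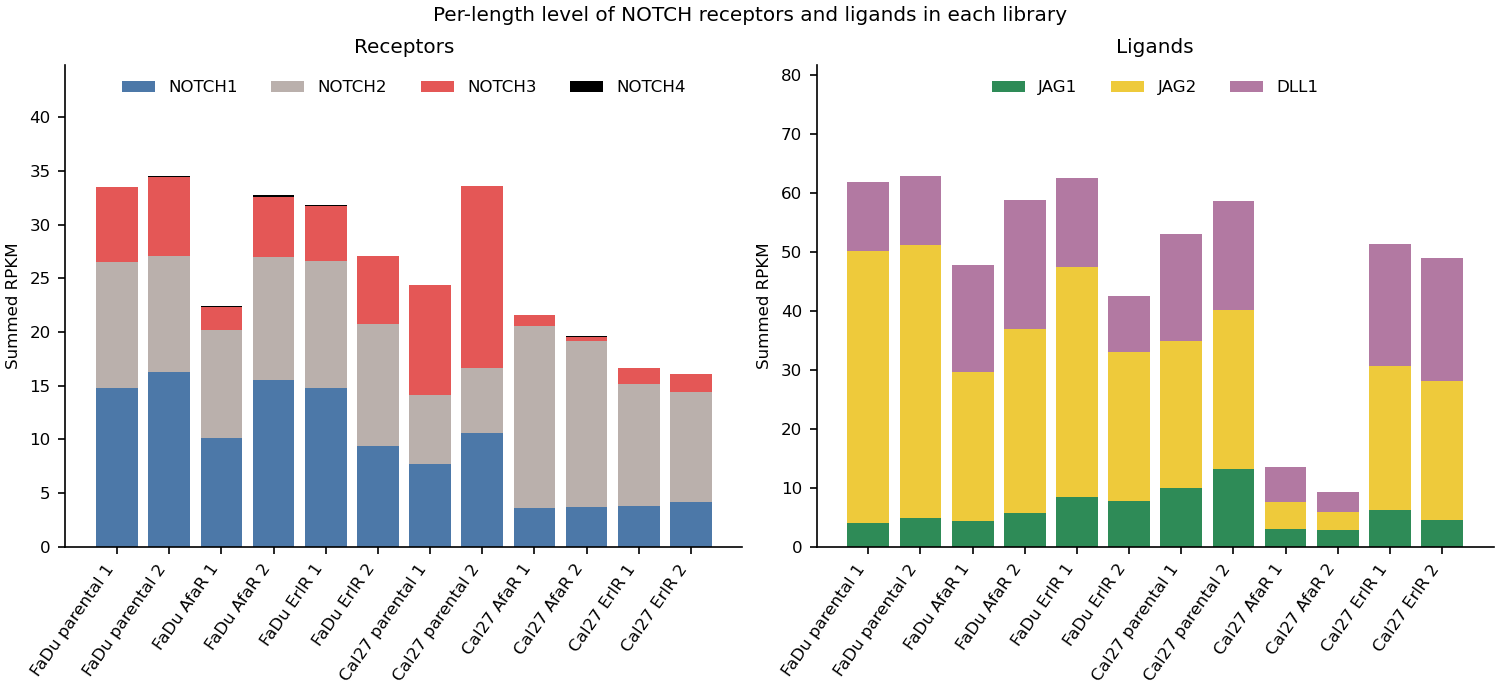
Stacked RPKM of the receptors NOTCH1 to NOTCH4 (left) and of the ligands JAG1, JAG2 and DLL1 (right) in each of the 12 libraries. In Cal27 AfaR the ligand sum is 13.6 and 9.38 RPKM against 53.1 and 58.8 RPKM in parental cells, and the NOTCH3 part of the receptor bars is small in all 4 resistant Cal27 libraries.

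JAG2 (ENSG00000184916, chromosome 14, 105140981 to 105168824, minus strand), a ligand of the Jagged type, was the most abundant ligand per length in each FaDu and in each Cal27 parental and ErlR library. In FaDu it had 294 and 296 CPM in parental, 161 and 199 CPM in AfaR, and 249 and 162 CPM in ErlR cells. Cal27 parental cells had 159 and 173 CPM, Cal27 AfaR cells 28.9 and 19.6 CPM, and Cal27 ErlR cells 156 and 151 CPM. The AfaR libraries of both lines lay below the parental ones, and those of Cal27 ErlR only a little below them. JAG2 fell by 2.77 on the log2 scale in Cal27 AfaR (SE 0.186, adjusted p = 9.93e-06 from edgeR), a 6.83-fold lower level, and by 0.73 in FaDu AfaR (SE 0.186, adjusted p = 0.0283). The FaDu call was lost whichever of the 4 libraries was left out, with values from -0.89 to -0.60, and with ERCC scaling (-0.55). In Cal27 ErlR the log2 fold change was -0.14 (SE 0.172, adjusted p = 0.581 from edgeR), and in FaDu ErlR it was -0.53 (SE 0.186, adjusted p = 0.138), or -0.88 and passing without FaDu ErlR replicate 1.

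JAG1 (ENSG00000101384, chromosome 20, 10637684 to 10674107, minus strand), the other Jagged ligand, went in opposite directions in the ErlR models. In FaDu it had 35.1 and 42.1 CPM in parental, 37.6 and 49.7 CPM in AfaR, and 71.7 and 66.9 CPM in ErlR cells. In Cal27 it had 85.5 and 112 CPM in parental, 26.6 and 24.7 CPM in AfaR, and 53.2 and 38.7 CPM in ErlR cells. The FaDu ErlR libraries were above, and the Cal27 ErlR libraries below, both libraries of their own parental line. JAG1 rose by 0.83 in FaDu ErlR (SE 0.158, adjusted p = 0.0265 from edgeR) and fell by 1.13 in Cal27 ErlR (SE 0.188, adjusted p = 0.00266) and by 1.95 in Cal27 AfaR (SE 0.194, adjusted p = 8.8e-05). Leaving out any of the 4 libraries ended the FaDu ErlR call, with values from 0.70 to 0.97, and both Cal27 calls were kept in all such fits.

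DLL1 (ENSG00000198719, chromosome 6, 170282206 to 170306565, minus strand), a ligand of the Delta type, had in FaDu 38.1 and 37.2 CPM in parental, 58.6 and 70.8 CPM in AfaR, and 49.0 and 30.4 CPM in ErlR cells. In Cal27 it had 58.7 and 59.8 CPM in parental, 19.2 and 11.0 CPM in AfaR, and 67.0 and 67.0 CPM in ErlR cells. The AfaR libraries were above the parental ones in FaDu and below them in Cal27. The log2 fold change was 0.76 in FaDu AfaR (SE 0.202, adjusted p = 0.0324 from edgeR) and -1.97 in Cal27 AfaR (SE 0.224, adjusted p = 0.000194). The first call was lost without either FaDu parental replicate (0.77 and 0.74) or FaDu AfaR replicate 2 (0.62). As shares of the summed ligand RPKM in FaDu, JAG2 went from 74.3% and 73.8% in parental to 52.7% and 52.8% in AfaR libraries, and DLL1 from 19.1% and 18.4% to 38.0% and 37.3%. The summed ligand RPKM in Cal27 was 53.1 and 58.8 in parental, 51.4 and 49.0 in ErlR, and 13.6 and 9.38 in AfaR libraries.

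Of the targets, only NRARP passed against parental cells, and only in Cal27 AfaR. HEY1 was near the floor of the measurement, and the HES1 replicates lay apart in both resistant Cal27 groups, so these values cannot settle whether the targets moved together. NRARP, an ankyrin repeat protein that dampens NOTCH signalling and is itself induced by it, and HES1, a transcriptional repressor, are both classical targets, so the 250 bases before their start sites in RefSeq (GRCh38.p14) are shown, with those of HES4, a relative of HES1 that is described further on. Capitals mark GTGGGAA, the core of the site bound by RBPJ, which was searched in this spelling and as TTCCCAC for the opposite strand; no other motif was searched.

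HES1, chr3:194135898-194136147, plus strand: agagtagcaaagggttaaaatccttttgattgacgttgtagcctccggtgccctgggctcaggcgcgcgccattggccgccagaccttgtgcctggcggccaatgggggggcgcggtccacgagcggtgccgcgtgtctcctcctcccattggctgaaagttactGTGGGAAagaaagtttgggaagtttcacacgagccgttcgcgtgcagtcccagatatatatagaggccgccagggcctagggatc

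NRARP, chr9:137302272-137302521, minus strand: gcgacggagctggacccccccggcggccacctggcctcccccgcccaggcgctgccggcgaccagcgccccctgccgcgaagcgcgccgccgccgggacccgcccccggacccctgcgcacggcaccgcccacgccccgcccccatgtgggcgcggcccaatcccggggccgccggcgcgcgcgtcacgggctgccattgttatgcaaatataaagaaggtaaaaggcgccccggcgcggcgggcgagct

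HES4, chr1:1000098-1000347, minus strand: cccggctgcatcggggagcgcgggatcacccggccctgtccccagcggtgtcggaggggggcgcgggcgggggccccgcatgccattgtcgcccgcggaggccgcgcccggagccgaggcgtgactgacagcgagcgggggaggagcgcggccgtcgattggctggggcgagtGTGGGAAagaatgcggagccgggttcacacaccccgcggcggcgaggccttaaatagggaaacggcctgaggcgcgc

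In these 250 bases HES1 held 1 match, 85 bases before the start, HES4 held 1, 77 bases before the start, and NRARP held 0. Of the 9 members 7 have an entry in the table of promoters, and HES1 was the 1 with a match. The motif occurred in 1906 of 35116 promoter windows of this length, or 5.43%. A match is a description of the letters and not a bound site.

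NRARP (ENSG00000198435, chromosome 9, 137300482 to 137302251, minus strand) had in FaDu 150 and 145 CPM in parental, 85.3 and 140 CPM in AfaR, and 95.6 and 73.6 CPM in ErlR cells. Cal27 parental cells had 34.5 and 35.4 CPM, Cal27 AfaR cells 5.78 and 9.69 CPM, and Cal27 ErlR cells 23.8 and 27.3 CPM. In each resistant group both libraries were below both parental libraries. The fall passed in Cal27 AfaR, with a log2 fold change of -2.18 (SE 0.231, adjusted p = 0.000124 from edgeR), 4.52-fold lower. It did not pass in Cal27 ErlR (-0.48, adjusted p = 0.128 from edgeR), in FaDu AfaR (-0.41, adjusted p = 0.197) or in FaDu ErlR (-0.82, adjusted p = 0.0642), and in FaDu AfaR it passed at -0.81 without AfaR replicate 2. In FaDu ErlR it passed with DESeq2 (-0.81), without a filter (-0.84) and with only the 4 libraries compared (-0.81). There it did not pass when any library was left out, with values from -1.02 to -0.64. In FaDu AfaR 9 of 41 other tested genes within 500000 bases of NRARP were lower and 2 higher, against 7.49% and 10.4% of all tested genes. In FaDu ErlR 1 was lower and 0 higher, against 1.60% and 2.58%. Of 42 such genes tested in Cal27, 14 were lower and 1 higher in Cal27 ErlR, and 4 lower and 10 higher in Cal27 AfaR. Among all tested genes 15.3% were lower and 12.3% higher in Cal27 ErlR, and 18.2% and 19.5% in Cal27 AfaR. This window overlaps that of NOTCH1, so the counts of both are not independent. The part of the NRARP neighbourhood in the NRARP values was not tested.

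HES1 (ENSG00000114315, chromosome 3, 194136145 to 194138732, plus strand) was nearly level in FaDu, with 34.6 and 34.4 CPM in parental, 31.8 and 36.3 CPM in AfaR, and 35.5 and 34.7 CPM in ErlR cells. The FaDu log2 fold changes were -0.04 (SE 0.124) and 0.01 (SE 0.125). In Cal27 it had 37.3 and 43.9 CPM in parental, 30.1 and 54.9 CPM in AfaR, and 29.8 and 92.2 CPM in ErlR cells, so that in both resistant groups 1 library lay below and 1 above the parental pair. The log2 fold change of Cal27 ErlR was 0.56 (SE 0.439, adjusted p = 0.370 from edgeR), and it was 1.17 and passed without replicate 1 but was -0.44 without replicate 2. In Cal27 AfaR it was 0.07 (SE 0.440, adjusted p = 0.923 from edgeR). Across the 12 libraries the genes with the highest Pearson correlation to HES1 (log2 scale, among genes averaging 5 CPM or more) were FOSB (0.82), CREBZF (0.78) and ZFP36 (0.74), which were looked at because of this split and after its values were seen. FOSB and ZFP36 are immediate early genes, which respond to stimulation of a cell within minutes. FOSB had 4.43 and 24.0 CPM in the Cal27 AfaR and 9.01 and 65.8 CPM in the Cal27 ErlR replicates, and ZFP36 28.0 and 33.0 CPM and 32.7 and 96.1 CPM. In both groups the replicate with more HES1 also had more of both genes. As they were picked by their correlation over these same libraries, this likeness is not independent of the choice. In FaDu parental cells FOSB had 7.09 and 13.8 CPM and ZFP36 12.6 and 28.5 CPM, while HES1 had 34.6 and 34.4 CPM. The part of both genes in the HES1 values was not tested.

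**Figure D4:**
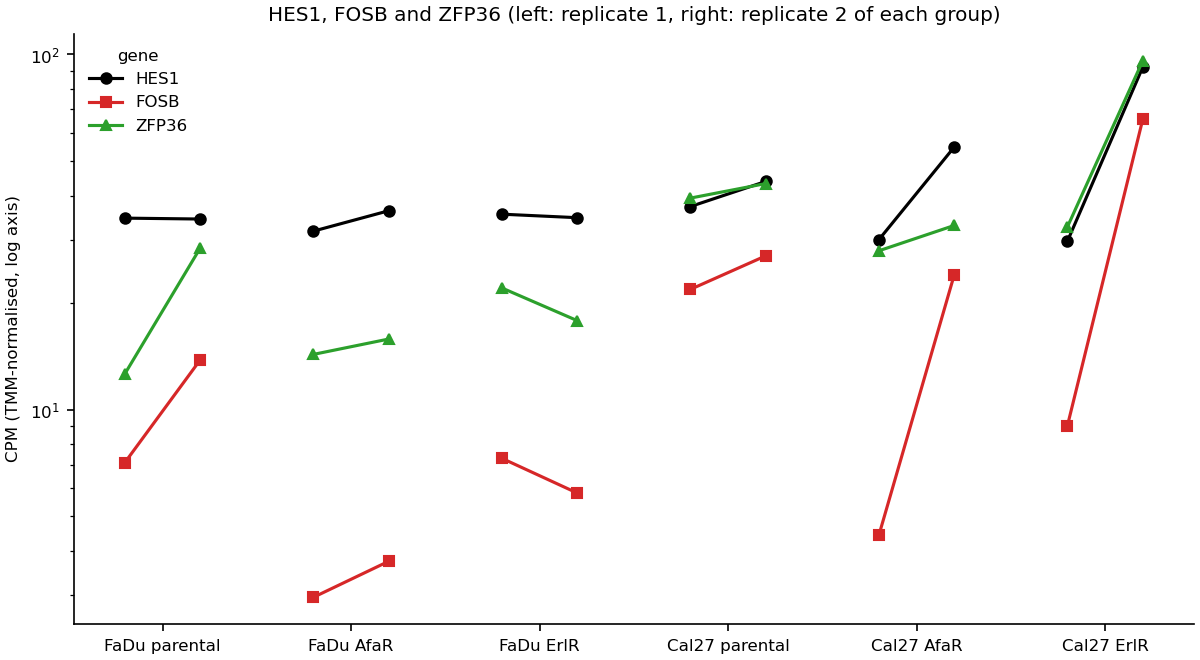
CPM on a log axis of HES1, FOSB and ZFP36 in the 12 libraries, where each line joins replicate 1 (left) and replicate 2 (right) of a group. HES1 lies between 31.8 and 36.3 CPM in all FaDu libraries, and in Cal27 ErlR all 3 genes are higher in replicate 2, at 92.2, 65.8 and 96.1 CPM.

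HEY1 (ENSG00000164683, chromosome 8, 79764010 to 79767863, minus strand), a repressor related to HES1, had between 2 and 22 counts in a library and at most 1.19 CPM. Its CPM values were 0.583 and 0.520 in FaDu parental, 0.922 and 0.576 in FaDu AfaR, 0.128 and 0.523 in FaDu ErlR, 0.990 and 0.875 in Cal27 parental, 1.19 and 0.638 in Cal27 AfaR, and 0.703 and 0.855 in Cal27 ErlR. The resistant libraries overlapped the parental ones in every comparison but Cal27 ErlR, where both were just below them. The summed count ratio to parental was 1.33 (exact 95% interval 0.752 to 2.39) in FaDu AfaR, 0.585 (0.247 to 1.29) in FaDu ErlR, 0.990 (0.590 to 1.66) in Cal27 AfaR and 0.838 (0.476 to 1.46) in Cal27 ErlR. These intervals cover counting error alone and not the spread between cultures, so they are no limit of detection. Changes within them, and some beyond them, may have gone undetected at this depth.

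The parental lines differed in 5 of the 9 genes, 2 higher (JAG1, DLL1) and 3 lower (NOTCH1, JAG2, NRARP) in Cal27, where 28.7% of 16240 tested genes were higher and 26.8% lower. NRARP and JAG1 differed by more than 1 on the log2 scale, as 31.6% of genes did. The largest difference was in NRARP, at a log2 value of -2.08 (SE 0.241, adjusted p = 1.45e-05 from edgeR), and JAG1 was 1.36 higher (SE 0.189, adjusted p = 6.36e-05). NOTCH1 (-0.76), JAG2 (-0.83) and DLL1 (0.66) passed by less. With scaling to the ERCC spike-ins, which moved the median of all genes by 0.58 in this comparison, NOTCH1 (-0.17) and JAG2 (-0.24) no longer passed and NOTCH3 (1.51) did. The call of NOTCH1 was also lost without FaDu parental replicate 2 (-0.70) or Cal27 parental replicate 1 (-0.55), and that of DLL1 without any 1 of the 4 libraries (0.62 to 0.67). NOTCH3, at 0.92 (adjusted p = 0.0705 from edgeR), passed without Cal27 parental replicate 1 (1.24), without a filter (0.92) and with only the 4 parental libraries (0.91). Scaled by ERCC, 7917 of 9631 passing genes were higher in Cal27, against 4668 of 9022 with TMM.

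Whether the change from parental to AfaR cells differed between the lines was tested as an interaction over all 12 libraries. Each line has 1 selected population per drug, so a difference between the lines cannot be told apart from one between single selections. The change was more negative in Cal27 than in FaDu for 6 of the 9 genes and for 0 the other way, where 10.5% and 8.00% of 16240 genes passed in these directions. As FaDu minus Cal27, the difference in log2 fold change was 3.41 for NOTCH3 (SE 0.614, adjusted p = 0.00239 from edgeR), 2.75 for DLL1 (SE 0.337, adjusted p = 0.000168), 2.13 for JAG1 (SE 0.268, adjusted p = 0.000206) and 2.06 for JAG2 (SE 0.287, adjusted p = 0.000423). NRARP differed by 1.79 and NOTCH1 by 1.05, and the NOTCH1 call was lost in 6 of 8 fits that left out a library: without FaDu parental replicate 1 (0.98) or 2 (1.12), FaDu AfaR replicate 2 (0.73), Cal27 parental replicate 2 (0.81), and Cal27 AfaR replicate 1 (1.03) or 2 (1.07). NOTCH3 differed by 2.57 without FaDu AfaR replicate 2 and by 4.36 without Cal27 AfaR replicate 1. For erlotinib resistance 2 genes differed, NOTCH3 by 2.81 (SE 0.595, adjusted p = 0.00723 from edgeR) and JAG1 by 1.95 (SE 0.266, adjusted p = 0.000753), where 9.80% of all genes passed in this direction. NOTCH1 had a difference of 0.85 there (adjusted p = 0.0827 from edgeR), and passed without FaDu ErlR replicate 2 (1.15) or Cal27 parental replicate 1 (1.06). HES1 differed by -0.56 (adjusted p = 0.506 from edgeR) and passed at -1.14 without Cal27 ErlR replicate 1. In the other direction 8.80% of genes passed. A difference over 1 in size as well was found for 10.9% of all genes in erlotinib and 12.3% in afatinib resistance, beside 2 and 6 members. With ERCC scaling, which shifted the median of all genes by 0.15 and 0.47, 1998 of 2791 passing genes lay in the first direction for afatinib and 3765 of 4048 for erlotinib resistance, against 1713 of 3013 and 1592 of 3021 with TMM, and the erlotinib difference of NOTCH1 passed (1.36).

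**Figure D5:**
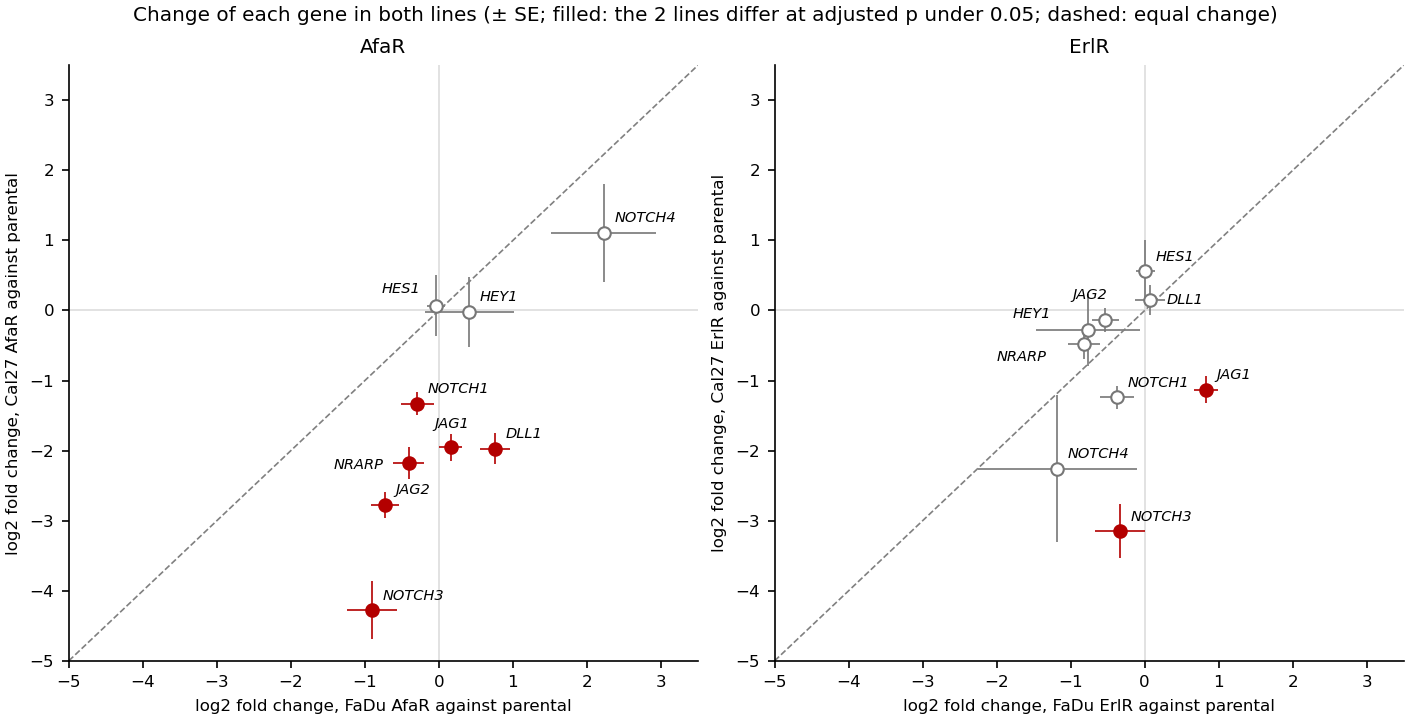
Log2 fold change (± SE) of each gene in FaDu (horizontal) and Cal27 (vertical), for AfaR (left) and ErlR (right) cells against parental cells, with filled circles where the lines differ at an adjusted p under 0.05 and a dashed line of equal change. In AfaR 6 genes lie below the dashed line and differ, from NOTCH1 (1.05) to NOTCH3 (3.41), and in ErlR NOTCH3 (2.81) and JAG1 (1.95) do.

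The resistant models of 1 line were also set against each other. In Cal27, AfaR cells had less of 5 genes and more of 1 than ErlR cells, where 23.2% of tested genes were lower and 26.5% higher. Of the 6, all but JAG1 exceeded 1 in size, as 27.1% of genes did. JAG2 differed by -2.63 (SE 0.186, adjusted p = 9.06e-06 from edgeR), DLL1 by -2.12 (SE 0.225, adjusted p = 8.53e-05), NRARP by -1.70 (SE 0.230, adjusted p = 0.000333) and JAG1 by -0.81 (SE 0.192, adjusted p = 0.00641). NOTCH3 differed by -1.13 (SE 0.404, adjusted p = 0.0417 from edgeR), and it lost the call without Cal27 AfaR replicate 2 (-0.58) or either ErlR replicate (-1.24 and -1.05), while without Cal27 AfaR replicate 1 it was -2.09. It was also lost with DESeq2 (-1.14), with at least 10 counts in every library (-1.07) and in the fit of all 12 libraries (-1.16). NOTCH4 was the gene that was higher, with a summed count ratio of 11.2 (exact 95% interval 2.79 to 97.5). The limit given above on reads shared with GPSM3 holds here too. In FaDu, AfaR cells had more NOTCH4 (ratio 11.5, interval 3.71 to 57.5) and more DLL1 (0.70) than ErlR cells and less JAG1 (-0.67), where 8.06% of genes were higher and 7.65% lower, and 5.94% passed with a size over 1, as NOTCH4 did among the members. Without FaDu ErlR replicate 2 all 3 FaDu calls were lost, with log2 values of 2.46 for NOTCH4, 0.39 for DLL1 and -0.73 for JAG1. NOTCH4 was also lost without FaDu AfaR replicate 2 (2.91) and stood at 7.46 without ErlR replicate 1, where the other ErlR library has 0 counts and the fitted value is no bound. DLL1 was also lost without FaDu AfaR replicate 1 (0.82) or 2 (0.56), with only the 4 libraries compared (0.70) and in the fit of all 12 libraries (0.70), and JAG1 without FaDu AfaR replicate 1 (-0.50) or ErlR replicate 1 (-0.61). NOTCH3 (-0.57) passed at -1.41 without FaDu AfaR replicate 2, and NRARP (0.41) at 0.72 without FaDu AfaR replicate 1. In Cal27 the NOTCH4 call was lost without either AfaR replicate (3.36 and 3.38) or ErlR replicate 1 (2.47) and was 6.60, again against a library at 0 counts, without ErlR replicate 2, and JAG1 was lost without AfaR replicate 2 (-0.77). HES1 passed there at -1.10 without Cal27 ErlR replicate 1, from -0.50. ERCC scaling moved the median of all genes by -0.31 in the FaDu comparison, ended the DLL1 call (0.36) and brought NOTCH3 past the threshold (-0.85). With it 618 of 4259 passing genes were higher in FaDu AfaR, against 1216 of 2371 with TMM.

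A list of 58 other genes of the pathway, in 6 roles, was followed beside the members, and 54 of them were tested in FaDu and 51 in Cal27. In FaDu AfaR 8 were higher and 4 lower, where 10.4% and 7.49% of all tested genes were, and in FaDu ErlR 0 and 3, against 2.58% and 1.60%. In Cal27 AfaR 14 were higher and 10 lower, against 19.5% and 18.2%, and in Cal27 ErlR 5 and 10, against 12.3% and 15.3%, with median log2 fold changes of 0.12, -0.07, 0.03 and -0.09 in this order of the models. The FaDu counts rested on few libraries, with 2 to 9 genes passing in AfaR and 0 to 2 in ErlR when a library was left out, and ERCC scaling, which moved the median of all genes by 0.49 there, gave 20 in FaDu ErlR. By that scaling 5655 of 5747 passing genes were higher in FaDu ErlR and 2093 of 2313 in FaDu AfaR, against 389 of 631 and 1563 of 2694 with TMM. In Cal27 15 to 19 genes passed in AfaR and 7 to 15 in ErlR when a library was left out. RBPJ and MAML1, the core of the nuclear complex, passed in none of the 4 comparisons, with log2 fold changes from -0.03 to 0.19 and from -0.27 to 0.15. Among the proteases, ADAM10 passed in none (-0.36 to -0.17), and ADAM17 was lower in Cal27 ErlR (-0.63, or -0.52 and not passing without Cal27 parental replicate 2). Of the gamma-secretase subunits, APH1B rose from 1.46 and 1.98 to 11.6 and 11.6 CPM in Cal27 AfaR (2.74, SE 0.284, adjusted p = 0.000109 from edgeR) and from 1.02 and 1.77 to 3.35 and 5.27 CPM in FaDu AfaR (1.61, adjusted p = 0.0241). The FaDu call was lost without FaDu parental replicate 1 (1.26) or FaDu AfaR replicate 2 (1.25). NCSTN had log2 fold changes of 0.86 in Cal27 AfaR and -0.53 in Cal27 ErlR, and the second was lost in all 4 fits without a library (-0.61 to -0.40).

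The Fringe glycosyltransferases, which set how a receptor responds to Jagged and Delta ligands, changed in both directions. LFNG had 25.7 and 21.4 CPM in Cal27 parental, 60.6 and 43.2 CPM in AfaR and 15.5 and 13.4 CPM in ErlR cells, with log2 fold changes of 1.14 (SE 0.194, adjusted p = 0.00174 from edgeR) and -0.73 (SE 0.200, adjusted p = 0.0256). The ErlR call of LFNG was lost without Cal27 parental replicate 1 (-0.57) or ErlR replicate 1 (-0.83) or 2 (-0.60). MFNG went the other way, from 3.15 and 1.11 CPM in Cal27 parental to 0.108 and 0.290 CPM in AfaR (-3.39) and 7.54 and 7.15 CPM in ErlR cells (1.76). Its parental replicates lay apart: without replicate 1 these values were -2.45 and 2.71, the ErlR call was lost without parental replicate 2 (1.21) or ErlR replicate 1 (1.73), and the AfaR value was -4.19 without AfaR replicate 2. LFNG was also lower in FaDu ErlR (-0.87), a call lost in all 4 fits without a library and with ERCC scaling (-0.37). Of the ubiquitin ligases that act on ligands, NEURL1 fell in both FaDu models, from 9.37 and 8.42 CPM to 0.922 and 0.576 CPM in AfaR (-3.59, SE 0.345, adjusted p = 0.000921 from edgeR) and 1.41 and 1.96 CPM in ErlR (-2.41, or -2.33 and not passing without FaDu parental replicate 1). NEURL1B rose in Cal27 AfaR from 2.10 and 4.08 to 22.8 and 30.9 CPM (3.12, SE 0.313, adjusted p = 9.25e-05 from edgeR) and was lower in FaDu ErlR (-0.86), where the call was lost in all 4 fits without a library and with ERCC scaling (-0.38). Among the Deltex ligases, DTX3 rose in FaDu AfaR (2.16) and in Cal27 AfaR (1.11), DTX3L rose in Cal27 AfaR (0.87), DTX4 fell there (-0.91), and DTX2 fell in Cal27 AfaR (-1.42) and ErlR (-0.72). For DTX3, DTX3L and DTX4 in Cal27 the values of the fits without a library are not given here. KAT2B, an acetyltransferase recruited by the nuclear complex, rose in FaDu AfaR (1.57) and Cal27 AfaR (2.97), the latter from 6 and 31 counts. It was 4.57 in Cal27 without parental replicate 2 and 2.23 without parental replicate 1, and in FaDu the call was lost without parental replicate 1 (1.55) or 2 (1.58) or AfaR replicate 2 (1.08). The remaining genes named by the rule were TLE1 (0.82 in FaDu AfaR), DLK2 (-1.21) and KAT2A (-0.51) in Cal27 AfaR, and AAK1 (0.63), CIR1 (-0.71) and MAML2 (-0.68) in Cal27 ErlR. Of these, TLE1 lost the call in all 4 fits without a library, KAT2A without Cal27 parental or AfaR replicate 1 (-0.45 and -0.41), CIR1 without Cal27 parental replicate 2 (-0.58) or ErlR replicate 1 (-0.64), and MAML2 without Cal27 ErlR replicate 1 (-0.56).

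Of the 7 relatives of HES1 and HEY1 in the list, 6 were tested in FaDu and 4 in Cal27. In FaDu AfaR 3 rose and 0 fell, against 10.4% and 7.49% of all tested genes. In FaDu ErlR 0 passed, against 2.58% higher and 1.60% lower. Cal27 AfaR had 0 that rose and 2 that fell, against 19.5% and 18.2%. In Cal27 ErlR the counts were also 0 and 2, against 12.3% and 15.3%. HES4 fell in Cal27 ErlR from 17.5 and 15.2 to 5.81 and 5.13 CPM (-1.60, SE 0.199, adjusted p = 0.000733 from edgeR). Its promoter carries the same core motif as that of HES1, whose Cal27 ErlR libraries lay on both sides of the parental ones. The motif was also found for HES5, HEY2 and HEYL, and not for HES2, HES6 and HES7. The part of the motif in these values was not tested. HES6 also fell in Cal27 ErlR (-1.68, from 3.79 and 4.90 to 1.34 and 1.41 CPM). HES2 and HES7 fell in Cal27 AfaR, by 3.10 and 2.55 on the log2 scale, from 10.7 and 9.39 CPM to 1.73 and 0.580 CPM and from 6.99 and 2.92 CPM to 0.810 and 0.871 CPM. HES2 was -4.10 without Cal27 AfaR replicate 1, and HES7 -1.79 without Cal27 parental replicate 1. In FaDu AfaR HES2 rose by a log2 value of 2.08, from 1.80 and 1.20 to 3.01 and 9.87 CPM, and the call was lost without parental replicate 1 (2.40) or 2 (1.82) or AfaR replicate 2 (0.99), and was 2.69 without AfaR replicate 1. HEY2 rose there from 2 and 3 to 17 and 21 counts, a call that was lost in all 4 fits without a library. HEYL was the other that rose there, from 24 and 25 to 51 and 77 counts (1.17, SE 0.352, adjusted p = 0.0480 from edgeR). Its values in the fits without a library are not given here. HES5 had 0 counts in 5 of the 6 groups.

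Among genes averaging 5 CPM or more, those whose pattern over the 12 libraries was most like that of NOTCH3, the member with the widest range (4.31 on the log2 scale), were LYN, TMPRSS4 and AK4, with Pearson correlations of 0.97, 0.95 and 0.95 over 10572 genes compared. The libraries share 2 parental lines, so this is a description of 6 groups more than of 12 points. LYN had 118 and 154 CPM in Cal27 parental, 49.5 and 44.6 CPM in AfaR and 61.5 and 58.4 CPM in ErlR cells. HES1 was the member least like NOTCH3 by the same measure, at -0.24, among the 6 members with a value.

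Other marker lists moved with the Cal27 AfaR group in which 6 members fell. The squamous markers fell in sum as given above, with TP63, a regulator of the basal layer, at 231 and 223 CPM in parental and 26.3 and 16.4 CPM in AfaR cells, and KRT5, a basal keratin, at 2864 and 1995 CPM and 421 and 309 CPM. A list of 7 fibroblast and pericyte markers summed to 30.2 to 41.5 CPM in Cal27 parental and 284 to 291 CPM in AfaR cells, mainly COL1A1 at 266 and 273 CPM, with 3 of the 7 under 1 CPM in both AfaR libraries. In Cal27 ErlR, where NOTCH1, NOTCH3 and JAG1 fell as well, the squamous sum was 5070 to 5197 CPM and the fibroblast sum 4.98 to 10.3 CPM. A list of 5 leukocyte markers summed to 3.95 to 6.75 CPM, with CD3E at 0 counts in 5 groups. The part of these markers in the results on the NOTCH genes was not tested.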

How the data were processed

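RNA from frozen pellets of 12 cultures (6 groups of 2) was enriched for poly(A) and, with ERCC spike-ins, sequenced as paired reads of 150 bases. Per the labels and the submitters' processing notes, the authors trimmed with Trimmomatic 0.36, aligned with STAR 2.5.2b to GRCh38 and counted with featureCounts (Subread 1.5.2). The strand setting is not given in the sources used here. Each deposited file of raw counts per Ensembl gene, which also gives exon length, was read as deposited, and 56948 of 58051 identifiers had a symbol. The authors also deposited normalized counts (a signal, each raw count divided by 1 factor per library), used only as an alternative; columns with the authors' own fold changes and p-values were not used.

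The main test was the quasi-likelihood test of edgeR 4.0.16 (R 4.3.3) with TMM scaling, filterByExpr and Benjamini-Hochberg adjustment, in 1 fit per line, and in 1 fit of all 12 libraries for parental lines and interactions. The SE is the log2 fold change divided by the root of F. RPKM is TMM-scaled CPM per kilobase of exon. Alternatives were DESeq2 1.42.0, log2 ratios of the authors' normalized counts (no test), RLE or ERCC scaling, no filter, at least 10 counts in every library, a fold limit, unadjusted p, other sets of libraries, a replicate block, and each library left out. The tests were tried on simulated counts. Count ratios have exact 95% intervals, which cover counting error alone.

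The members and the pathway and marker lists were chosen with earlier results of these data known. By the rule for named genes, all 9 members are described, with the 2 passing pathway genes of largest log2 change per role and comparison, and the 3 genes with the highest Pearson correlation, of log2(CPM + 0.5), to the member of widest range. RBPJ, MAML1, ADAM10, DTX3L, DTX4, HES5, HEYL, GPSM3 and the genes most like HES1 were named after their values were seen.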

Additional observations from a re-analysis of the deposited data

Results flagged for a closer look

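The change from parental to resistant cells differed between the lines, by the interaction test over all 12 libraries, in 8 results. With 1 selected population per line and drug, a difference between the lines cannot be told apart from one between single selections. For afatinib resistance the difference in log2 fold change, FaDu minus Cal27, was 3.41 for NOTCH3, 2.75 for DLL1, 2.13 for JAG1, 2.06 for JAG2, 1.79 for NRARP and 1.05 for NOTCH1, the last of which was lost in 6 of 8 fits that left out a library (0.73 to 1.33 over the 8). For erlotinib resistance it was 2.81 for NOTCH3 and 1.95 for JAG1. The libraries at 2 a group were too few for a search for samples far from the rest.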

How the results depend on the processing

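The 6 calls in Cal27 AfaR were made under each alternative that gives a test, and 3 or 4 members passed in Cal27 ErlR. In FaDu AfaR 2 members passed, against 5 without a filter, 0 with a log2 fold change over 1, 4 at an unadjusted p under 0.05, and 0 to 2 when a library was left out. In FaDu ErlR 1 passed, against 2 with DESeq2, with ERCC scaling or with only the 4 libraries compared, 4 without a filter, 0 with the fold limit, 3 unadjusted, and 0 to 1 when a library was left out. Between FaDu AfaR and ErlR 3 passed, against 5 without a filter, 1 with the fold limit, and 0 to 2 when a library was left out. Between Cal27 AfaR and ErlR 6 passed, against 7 without a filter, 5 with DESeq2, in the fit of all 12 libraries or with the fold limit, 4 with at least 10 counts in every library, and 3 to 5 when a library was left out. Between the parental lines 5 passed, against 6 without a filter, with only the 4 parental libraries or unadjusted, 4 with ERCC scaling, 2 with the fold limit and 3 to 4 when a library was left out. The cause of these moves was not tested, apart from the fewer libraries or the added limit that made them. A change of setting acts on the calls of all genes. For most of these settings the share of all genes that passed is not given here, so the counts are not results about the members.

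Same-numbered libraries of a line did not deviate together (correlations of -0.22 to 0.14). Whether the numbers pair cultures is not given in the labels, and these correlations cannot settle it. With a replicate block 1 member passed between FaDu AfaR and ErlR, NOTCH4 (3.38) and DLL1 (0.72) being lost, NOTCH3 passed in FaDu AfaR (-1.02), HES1 in Cal27 AfaR was -0.02, and of the pathway list 7 genes in place of 12 passed in FaDu AfaR.

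Signs turned in log2 values that did not pass at the settings of the report. With ERCC scaling these were HES1 in FaDu AfaR (0.15), NOTCH1 and NOTCH3 in FaDu ErlR (0.15 and 0.15), NOTCH1 between FaDu AfaR and ErlR (-0.26), and the line differences of HES1 for AfaR (0.08) and of JAG2 (0.09), DLL1 (0.40) and NRARP (0.14) for ErlR. HES1 in FaDu ErlR was -0.01 without a filter, where ERCC scaling gave 0.50 and a call, and HEY1 in Cal27 AfaR was 0.01 with at least 10 counts in every library. When a library was left out, JAG1 in FaDu AfaR ran from -0.05 to 0.34, HES1 in FaDu AfaR from -0.13 to 0.05, DLL1 in FaDu ErlR from -0.32 to 0.37 and HES1 in FaDu ErlR from -0.00 to 0.03. Between FaDu AfaR and ErlR, NOTCH1 ran from -0.26 to 0.44, JAG2 from -0.48 to 0.16 and HES1 from -0.14 to 0.03. In Cal27 AfaR HES1 ran from -0.41 to 0.44 and HEY1 from -0.54 to 0.36, in Cal27 ErlR HES1 from -0.44 to 1.17, and between them HES1 from -1.10 to 0.51 and HEY1 from -0.26 to 0.63. The line difference of HES1 ran from -0.46 to 0.42 for AfaR, and for ErlR those of NOTCH4 ran from -2.85 to 4.42, DLL1 from -0.48 to 0.21, HES1 from -1.14 to 0.47 and HEY1 from -1.79 to 0.18. For these sign changes the cause was not tested. The log2 values from the authors' normalized counts kept all 65 directions compared, and RLE scaling kept all 114 results. Depth limits NOTCH4 and HEY1, which had at most 34 and 22 counts in a library.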
